A study of Mus musculus with 12 samples.

Results

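The repressors of the circadian activator CLOCK:BMAL1 (CLK:BMAL1) followed here across the day in mouse liver are coded by *Per1*, *Per2*, *Per3*, *Cry1*, *Cry2*, *Gm129*, *Bhlhe40* and *Bhlhe41*. They were chosen by name, as 8 of the 20069 genes in the table of mRNA signal. The table lists *Bhlhe40* and *Bhlhe41* under their older symbols *Bhlhb2* and *Bhlhb3*, and *Gm129* is now called *Ciart*. The livers came from untreated wild-type C57BL/6 male mice that were adult (3 to 6 months old) and kept in 12 hr of light and 12 hr of darkness (LD12:12) for 2 weeks or more. Zeitgeber time (ZT) counts hours from lights on. Polyadenylated RNA was sequenced every 4 hr from ZT2 to ZT22 in 2 independent series, which gives 12 samples and n = 2 at each time. How many mice went into a library is not given in the sources used here. Signal is given in reads per base pair of exon (rpbp) at a common scale of 40000000 uniquely mapped sequences, so that levels can be compared between genes; the table holds no read counts, and the reads behind each value were not worked out here. In such bulk tissue, fewer cells of a type and less RNA per cell cannot be told apart.

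In the mammalian clock, CLK:BMAL1 binds E-boxes and activates the genes of its own repressors. PER and CRY proteins enter the nucleus as complexes and inhibit CLK:BMAL1, which closes the main feedback loop. DEC1 and DEC2, the products of *Bhlhe40* and *Bhlhe41*, are basic helix-loop-helix proteins that compete for E-boxes, and CHRONO, the product of *Gm129*, binds BMAL1 and reduces its activity. In liver this loop runs in hepatocytes and times the expression of many metabolic genes.

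Total signal was similar in the 12 samples: it summed to 1487469 to 1546116 rpbp, and size factors by median of ratios were 0.976 to 1.048. All 6 hepatocyte markers (*Alb*, *Apoa1*, *Ttr*, *Cps1*, *Tat* and *Cyp2e1*) were present and summed to 87421 to 169695 rpbp. By time means, summed hepatocyte markers were lowest at ZT2 and highest at ZT14. The highest of the 12 single samples was 1.94 times the lowest. In sum, 6 Kupffer cell markers were at 203 to 364 rpbp and 4 cholangiocyte markers at 63.7 to 229 rpbp. Both sums were, by time means, highest at ZT2 and lowest at ZT6, the step at which most repressors rose. The sums were 190 to 227 rpbp for 6 endothelial markers, 24.8 to 50.2 rpbp for 5 stellate cell markers and 295 to 857 rpbp for 2 red cell markers. In that order, their time means were highest at ZT2, ZT14 and ZT10 and lowest at ZT22, ZT10 and ZT6. Their part in the results below was not tested.

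The promoters of 3 members are shown, picked with their peak times known: among the members called rhythmic, *Gm129* and *Per3* had the earliest peaks and *Cry1* the latest. Each is the 250 bases before the RefSeq start of the GRCm38.p6 table, found once and unchanged in mm9, and is given 5′ to 3′ on the strand of the gene, with motifs in capitals. The motifs searched, on both strands, were the E-box CACGTG, an E-box variant CACGTT (which reads AACGTG from the other strand) and the D-box TTATGTAA bound by PAR bZIP factors, and none of these matches overlapped another.
*Gm129*, chr3:95686152-95686401, minus strand: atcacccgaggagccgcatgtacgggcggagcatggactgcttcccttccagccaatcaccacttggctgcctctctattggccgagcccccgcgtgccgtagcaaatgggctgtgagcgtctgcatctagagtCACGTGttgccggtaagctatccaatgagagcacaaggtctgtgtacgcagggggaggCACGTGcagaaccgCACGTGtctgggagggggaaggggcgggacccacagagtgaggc
*Per3*, chr4:150418775-150419024, minus strand: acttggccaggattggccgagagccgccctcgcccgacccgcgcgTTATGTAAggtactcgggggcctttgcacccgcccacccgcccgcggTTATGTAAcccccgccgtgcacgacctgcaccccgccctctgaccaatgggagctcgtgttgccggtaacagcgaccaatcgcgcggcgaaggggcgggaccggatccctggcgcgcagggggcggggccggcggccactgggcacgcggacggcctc
*Cry1*, chr10:84647800-84648049, minus strand: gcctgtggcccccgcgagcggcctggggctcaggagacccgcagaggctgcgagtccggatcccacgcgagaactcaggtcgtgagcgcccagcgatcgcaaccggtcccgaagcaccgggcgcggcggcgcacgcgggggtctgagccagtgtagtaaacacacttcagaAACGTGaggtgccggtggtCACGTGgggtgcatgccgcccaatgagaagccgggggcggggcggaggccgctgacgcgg
The *Gm129* window held 3 E-boxes, which begin 116, 58 and 44 bases before the start. *Per3* held 2 D-boxes, at 205 and 158 bases before the start, and no match to the E-box letters in this window. *Cry1* held 1 E-box at 60 bases and 1 variant on the other strand at 79 bases before the start. Of 32851 promoters of this length, 6.02% held the E-box and 0.429% held 2 or more, 3.85% held the variant, and 0.819% held the D-box, with 2 or more in 0.0183%. Among the other members, *Cry2* held 1 variant (166 bases before the start), *Bhlhe41* held 1 E-box (153 bases) and *Per1* held 1 E-box (166 bases) before 1 of its 2 listed starts, both of which lie inside the longer *Per1* gene of the mm9 annotation. The windows of *Gm129* and *Bhlhe41* also overlap their mm9 genes in part. Distances from those mm9 starts (95686174 and 145814078) would be shorter than the ones given. In all, 6 of the 8 members had an entry; the 2 without one were *Per2* and *Bhlhe40*. These matches describe letters and do not show that a factor bound there. Whether motifs go with peak time was not tested.

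All 3 *Period* genes had a 24 hr rhythm with low signal in the early morning. *Per1* (chromosome 11, 68908719 to 68923462, mm9), whose transcription also responds to glucocorticoids, was at 0.68, 5.92, 11.9, 10.4, 4.64 and 1.84 rpbp from ZT2 to ZT22 in series 1 and at 0.72, 4.68, 13.8, 8.60, 2.08 and 1.44 rpbp in series 2. Its 2 samples at ZT10 were above all other samples, and its 2 samples at ZT2 were below all others. The mean was 12.8 ± 1.33 rpbp (SD, n = 2) at ZT10 and 0.70 ± 0.0283 rpbp at ZT2, an 18.3-fold range of time means.

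*Per2* (chromosome 1, 93312561 to 93355907), whose protein is a scaffold of the PER:CRY complex, was the most abundant *Period* mRNA from ZT10 to ZT2. It was at 3.24, 17.7, 27.4, 36.0, 15.2 and 7.12 rpbp from ZT2 to ZT22 in series 1 and at 3.88, 19.2, 25.4, 40.04, 12.0 and 6.88 rpbp in series 2. No samples of neighbouring times overlapped, and both ZT14 samples stood above all others. The time means ran from 3.56 ± 0.453 rpbp at ZT2 to 38.0 ± 2.89 rpbp at ZT14 (SD, n = 2), a 10.7-fold range.

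*Per3* (chromosome 4, 150377761 to 150418774), a family member that is dispensable for the core loop in mice, was at 0.28, 20.6, 21.8, 15.0, 4.56 and 1.08 rpbp from ZT2 to ZT22 in series 1 and at 0.48, 23.5, 16.5, 13.8, 5.0 and 1.28 rpbp in series 2. It was near the lower end of the scale at ZT2 and close to its maximum only 4 hr later. Samples at ZT6 and ZT10 overlapped, whereas those at ZT14, ZT18, ZT22 and ZT2 did not overlap with any other time. Its time means ran from 0.38 ± 0.141 rpbp at ZT2 to 22.02 ± 2.07 rpbp at ZT6, and the 58.0-fold range rests on the low ZT2 values (48.9-fold in series 2 and 78.0-fold in series 1).

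The *Cryptochromes* differed from each other in both time and range. *Cry1* (chromosome 10, 84594447 to 84647799), which codes for a potent repressor of CLK:BMAL1, was at 7.88, 6.24, 19.6, 35.2, 49.4 and 37.8 rpbp from ZT2 to ZT22 in series 1 and at 9.20, 6.04, 15.3, 39.2, 51.0 and 26.2 rpbp in series 2. Both ZT18 samples were above all others and both ZT6 samples below all others; the ZT22 samples lay far apart and overlapped those at ZT14. Time means ran from 6.14 ± 0.141 rpbp at ZT6 to 50.2 ± 1.16 rpbp at ZT18 (SD, n = 2), an 8.17-fold range.

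*Cry2* (chromosome 2, 92243803 to 92274200), which also represses CLK:BMAL1, was at 17.6, 36.8, 31.0, 33.3, 28.2 and 18.8 rpbp from ZT2 to ZT22 in series 1 and at 14.9, 34.9, 30.1, 28.4, 36.5 and 19.8 rpbp in series 2. It had 2 levels more than a single peak: all 8 samples from ZT6 to ZT18 were at 28.2 rpbp or above, all 4 samples at ZT22 and ZT2 were at 19.8 rpbp or below, and the highest sample of series 2 was at ZT18. The range of time means was 2.21-fold. A noncoding gene, *D930015M05Rik*, shares 295 exon bases with *Cry2* on the opposite strand, and reads from the 2 cannot be told apart because counting was without strand.

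*Gm129* (chromosome 3, 95682426 to 95686174) was highest at ZT6 and ZT10 and lowest at ZT2. Its signal was 0.24, 13.5, 17.6, 6.8, 1.96 and 0.44 rpbp from ZT2 to ZT22 in series 1 and 0, 14.4, 14.7, 6.52, 0.64 and 1.88 rpbp in series 2. All 4 samples at ZT6 and ZT10 were above the other 8, and the 4 samples of ZT18 and ZT22 overlapped. The mean was 16.1 ± 2.07 rpbp (SD, n = 2) at ZT10; no fold is given against ZT2, where series 2 was listed at 0.

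*Bhlhe40* (chromosome 6, 108610623 to 108616919) was the most abundant member in every sample and the least regular. It was at 44.4, 144, 149, 153, 193 and 112 rpbp from ZT2 to ZT22 in series 1 and at 77.5, 211, 148, 108, 107 and 103 rpbp in series 2. Both series were lowest at ZT2, and no ZT2 sample overlapped with another time, but series 1 was highest at ZT18 and series 2 at ZT6. The SD was 40.6% of the mean at ZT18 and 0.362% at ZT10, and *Bhlhe40* had the largest gap between series in peak time of the 8 genes. The noncoding *0610040F04Rik* shares 118 exon bases with it on the opposite strand. *Bhlhe41* (chromosome 6, 145806763 to 145814078) had the lowest mean over the 12 samples (1.70 rpbp) and was at 0.48, 7.72, 1.56, 0.36, 0.80 and 0 rpbp in series 1 and at 0.28, 5.36, 0.92, 1.40, 1.52 and 0 rpbp in series 2. Its ZT6 samples were above the other 10, and ZT22 was listed at 0 in both series.

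**Figure D1:**
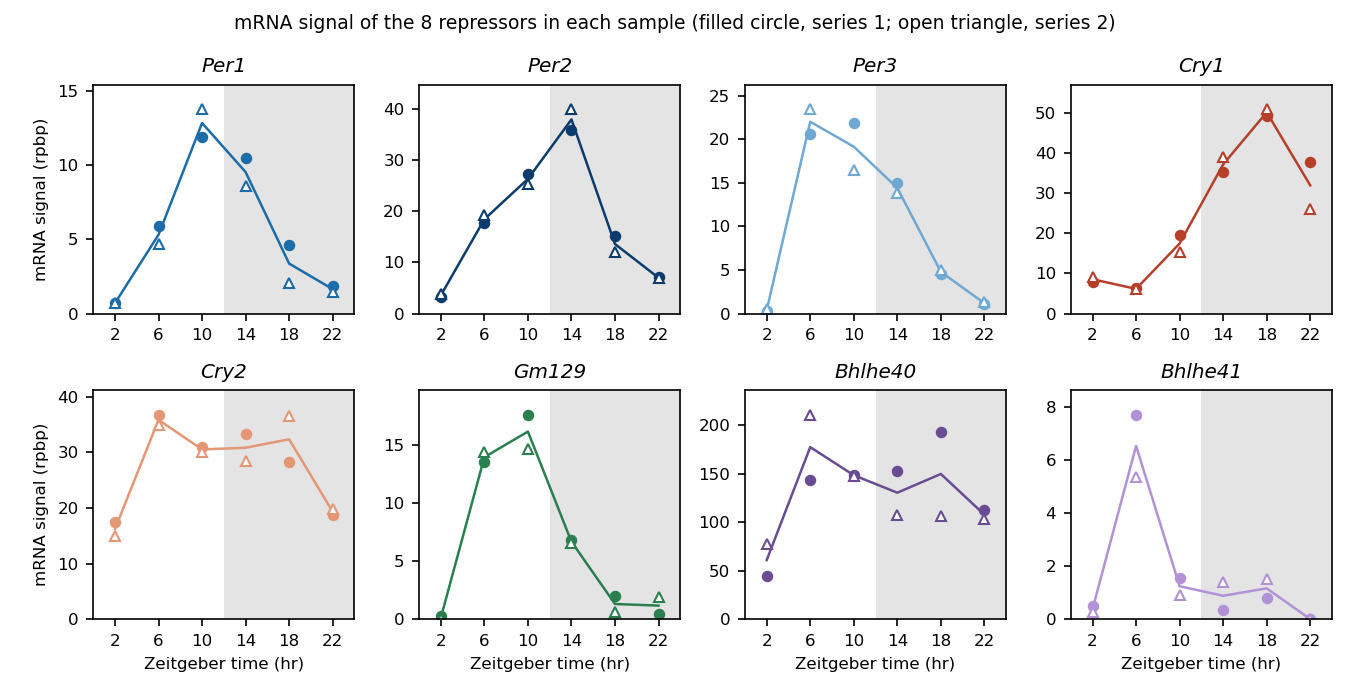
Signal (rpbp, linear axes that start at 0 and differ between panels) of each repressor against Zeitgeber time, with the mean of both series as a line and darkness shaded. *Per1*, *Per2*, *Per3* and *Cry1* have 1 crest a day in both series, *Gm129* has its crest at ZT6 and ZT10 in both, *Cry2* a plateau from ZT6 to ZT18, and *Bhlhe40* series that part at ZT2, ZT6, ZT14 and ZT18.

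Which of these profiles follow a 24 hr cosine was asked with F24, the share (0 to 1) of the variation of the 12 values about their mean that such a cosine takes up. A gene was called rhythmic with F24 above 0.45, a highest sample over 1.5 times the lowest, and a permutation p below 0.05 from 100000 random orders of the 12 values (one-sided), among the 10198 genes with 1 sample or more above 8 rpbp. Of the 8 repressors 7 passed that minimum and 5 were rhythmic, where 19.1% of all tested genes were. The same 5 also met the stricter limits for a strong rhythm (F24 above 0.6 and a larger amplitude; 7.89% of genes) and a Benjamini-Hochberg adjusted permutation p below 0.05 (5.00% of genes). *Bhlhe41* was not tested, since none of its samples exceeded 8 rpbp; *Per1* and *Gm129* passed through 4 samples, *Per3* through 6, *Per2* through 8 and *Cry1* through 9, whereas *Cry2* and *Bhlhe40* were above it in all 12.

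*Cry1* came closest to a cosine, with an F24 of 0.954 (permutation p = 1e-05, the smallest these orders can give; adjusted permutation p = 0.0085). It was followed by *Per1* with 0.890 (p = 5e-05 by permutation), *Per2* with 0.878 (p = 0.00021), *Gm129* with 0.849 (p = 0.00076) and *Per3* with 0.834 (p = 0.00216), with adjusted permutation p of 0.0109, 0.0159, 0.027 and 0.0431. Each of these 5 kept its call in all 12 fits that left out 1 sample. With 1 series alone the smallest exact permutation p that 6 values allow is 0.0167, and the range over these 5 genes and both series was 0.0167 to 0.183. Under that exact permutation test *Per1* stayed below 0.05 in both series and *Cry1* in series 2, and the others did not.

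*Cry2* and *Bhlhe40* were not called. *Cry2* had an F24 of 0.502 with a permutation p of 0.0565 (adjusted permutation p = 0.20), and a 12 hr cosine took up 0.395 of its variation. Its call turned on small choices: on log2(rpbp + 1) F24 was 0.554 and permutation p 0.0354, with size factors p was 0.049, and leaving out the first series' ZT6 sample or the second's ZT18 sample gave p = 0.0383 and 0.0271. *Bhlhe40* had an F24 of 0.258 (permutation p = 0.265) and a 12 hr share of 0.384, and was not called in any of 12 fits that left out 1 sample. A test that asks for any difference between the 6 times, limma's F-test, was added after the data were seen. It called all 7 tested repressors, where 20.4% of genes were called, with adjusted p of 0.00265 for *Cry2* and 0.0497 for *Bhlhe40*, the latter at the edge of the limit.

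Peaks ran from the middle of the light phase to the middle of the dark phase. Peak time, taken from the 24 hr cosine on the linear scale, was 6.98 hr for *Bhlhe41*, 9.19 hr for *Gm129*, 9.69 hr for *Per3*, 11.3 hr for *Per1*, 11.5 hr for *Bhlhe40*, 11.7 hr for *Cry2*, 12.2 hr for *Per2* and 17.3 hr for *Cry1*. Each peak time lies between 2 sampling times 4 hr apart, so differences under 4 hr come from the shape of the whole curve. The neighbours were compared by their difference in each series. *Per3* followed *Gm129* by 0.491 ± 0.0299 hr (SD over 2 series), *Per1* followed *Per3* by 1.66 ± 0.198 hr, and *Cry1* followed *Per2* by 5.08 ± 0.217 hr, each later in both series and beyond that spread. By time means, however, *Per3* was highest at ZT6 and *Gm129* at ZT10. On straight lines between time means, *Per3* rose through the midpoint of its range at 4 hr and *Gm129* at 4.32 hr. *Gm129* fell through its midpoint at 13.4 hr and *Per3* at 15.3 hr. The order of these 2 genes thus holds for the cosine and the fall, not for the rise or the highest time. *Bhlhe41* preceded *Gm129* by 2.03 ± 1.04 hr, at levels too low for the rhythm test. The steps from *Per1* to *Bhlhe40*, from *Bhlhe40* to *Cry2* and from *Cry2* to *Per2* did not hold in both series: *Bhlhe40* peaked at 14.3 hr in series 1 and 8.02 hr in series 2, and *Cry2* at 10.95 and 12.6 hr. With *Bhlhe40* and *Cry2* set aside, *Gm129*, *Per3*, *Per1*, *Per2* and *Cry1* kept this order in 17 of 17 alternative settings, each series alone included. These settings reuse the same 12 samples and the same 24 hr cosine, so they are not independent checks of the order.

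Phases on the log2 scale gave the same sequence at partly later times. In limma's cosine fit on log2(rpbp + 1) the peak was at 10.01 ± 0.57 hr (SE) for *Gm129*, 10.8 ± 0.53 hr for *Per3*, 11.6 ± 0.40 hr for *Per1*, 12.2 ± 0.38 hr for *Per2* and 17.1 ± 0.24 hr for *Cry1*. On this scale the standard error ranges of neighbours overlapped from *Gm129* to *Per2*, and that of *Cry1* overlapped with none.

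**Figure D2:**
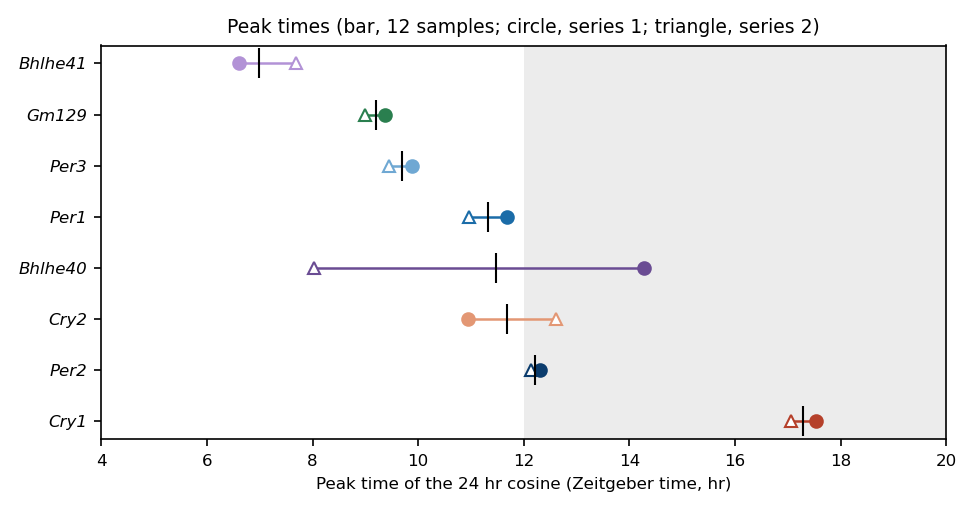
Peak time of the 24 hr cosine (hr after lights on) for each repressor, with a bar for all 12 samples and a joined circle and triangle for series 1 and 2; darkness is shaded. *Per2* has the smallest gap between series (12.3 and 12.1 hr) and *Bhlhe40* the largest (14.3 and 8.02 hr), and *Cry1* at 17.3 hr stands apart from the other 7.

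The amplitudes also had an order. No fold is given for *Gm129* and *Bhlhe41*, which were listed at 0 in 1 sample or more. Of the other 6, by time means on the linear scale, *Per3* (58.0-fold) was followed by *Per1* (18.3-fold), *Per2* (10.7-fold), *Cry1* (8.17-fold), *Bhlhe40* (2.91-fold) and *Cry2* (2.21-fold). The series gave 17.5- and 19.1-fold for *Per1*, 11.1- and 10.3-fold for *Per2*, and 7.91- and 8.44-fold for *Cry1*, so that these 3 did not overlap, and *Bhlhe40* (4.35- and 2.72-fold) lay above *Cry2* (2.10- and 2.45-fold). Without the first series' ZT2 sample this last order turned, with 2.29-fold for *Bhlhe40* and 2.41-fold for *Cry2*. In the cosine fit, which damps low values by its added 1 rpbp, peak to trough on the log2 scale was 4.05 ± 0.56 (SE) for *Per3*, 3.89 ± 0.58 for *Gm129*, 2.92 ± 0.19 for *Cry1*, 2.91 ± 0.31 for *Per1*, 2.82 ± 0.28 for *Per2*, 0.91 ± 0.39 for *Bhlhe40* and 0.88 ± 0.23 for *Cry2*. There *Cry1*, *Per1* and *Per2* were within their errors of each other. The time spent above the midpoint between lowest and highest time mean, with straight lines between sampled times, was 9.02 hr for *Per1*, 9.06 hr for *Gm129*, 9.65 hr for *Per2*, 10.5 hr for *Cry1* and 11.3 hr for *Per3*. Series 1 and 2 gave 10.6 and 7.71 hr for *Per1* and 11.2 and 9.40 hr for *Cry1*, so that no order of widths is read from them.

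When each mRNA rose and fell was tested between neighbouring times with limma on log2(rpbp + 1), with Benjamini-Hochberg adjustment over 10198 genes at each step. Neighbouring steps share the samples of the time between them. From ZT2 to ZT6, 6 of the 7 tested repressors rose, where 11.1% of genes were called higher and 8.61% lower, and none of the 7 was lower; the median change of all genes was −0.02 on the log2 scale. On the log2 scale *Per3* rose by 4.06 ± 0.19 (SE; adjusted p = 5.31e-06), *Gm129* by 3.75 ± 0.39 (0.000416), *Per2* by 2.10 ± 0.13 (3.19e-05), *Per1* by 1.88 ± 0.31 (0.00355), *Bhlhe40* by 1.55 ± 0.32 (0.00979) and *Cry2* by 1.10 ± 0.14 (0.000926). For each of these 6, both ZT6 samples were above both ZT2 samples. The calls for *Per1*, *Per2*, *Per3*, *Cry2* and *Gm129* remained in all 12 fits without 1 sample; that of *Bhlhe40* was lost without the first series' ZT2 sample (adjusted p = 0.0778) or the second's ZT6 sample (adjusted p = 0.0771). *Cry1* was at −0.41 ± 0.17 at this step (adjusted p = 0.122).

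The called rises of *Cry1* came at later steps than those of the others. It was the only member called from ZT6 to ZT10, at 1.36 ± 0.17 (SE; adjusted p = 0.0179, with 0.167% of genes called higher; *Per1* was at 1.14 ± 0.31, adjusted p = 0.171, and did not pass), and again from ZT10 to ZT14, at 1.06 ± 0.17 (limma adjusted p = 0.0291, with 0.539% of genes called higher). The first of these calls was lost without either ZT6 sample or the first series' ZT10 sample (adjusted p 0.0875 to 0.170) and the second in 7 of 12 fits that left out 1 sample (highest adjusted p = 0.161), with log2 changes of 0.89 to 1.38 in the fits that lost a call. *Cry1* then fell by 1.77 ± 0.17 on the log2 scale from ZT22 to ZT2 (adjusted p = 0.00421), a call that held in all 12 such fits. Between ZT6 and ZT14 *Per2* also went on rising, without a call. Its change was 0.49 ± 0.13 from ZT6 to ZT10 (SE; limma adjusted p = 0.171) and 0.51 ± 0.13 from ZT10 to ZT14 (adjusted p = 0.11).

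The called declines of *Period* mRNAs, those of *Per2* and *Per3*, fell between ZT14 and ZT2. From ZT14 to ZT18 *Per2* fell by 1.42 ± 0.13 on the log2 scale (limma adjusted p = 0.00643) and *Per3* by 1.42 ± 0.19 (adjusted p = 0.0221), the 2 members among the 0.216% of genes called lower at this step. *Per1* at −1.33 ± 0.31 (adjusted p = 0.0847) and *Gm129* at −1.80 ± 0.39 (adjusted p = 0.0736) had changes of like size that did not pass. From ZT18 to ZT22 *Per3* fell by a further 1.41 ± 0.19 (adjusted p = 0.038, with 0.0981% of genes called lower), a call kept in only 2 of 12 fits without 1 sample; *Per2* was at −0.86 ± 0.13 (adjusted p = 0.0521). From ZT22 to ZT2 *Per2* fell by 0.81 ± 0.13 on the log2 scale (adjusted p = 0.0183), so that *Per2* and *Cry1* were the members called at this step, where 1.66% of genes were called lower. The *Per2* calls were lost without the second series' ZT14 or ZT18 sample at the first of these steps (adjusted p = 0.0652 and 0.0512) and without either ZT2 sample or the first series' ZT22 sample at the last (0.0685 to 0.124). The *Per3* call from ZT14 to ZT18 was lost without any 1 of the 4 samples compared (0.0651 to 0.123).

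*Bhlhe41*, below the minimum, was tested only in the fit over all 20042 genes with any signal. There it rose by 2.44 ± 0.30 on the log2 scale from ZT2 to ZT6 (limma adjusted p = 0.0027) and was at −1.75 ± 0.30 from ZT6 to ZT10 (adjusted p = 0.101).

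**Figure D3:**
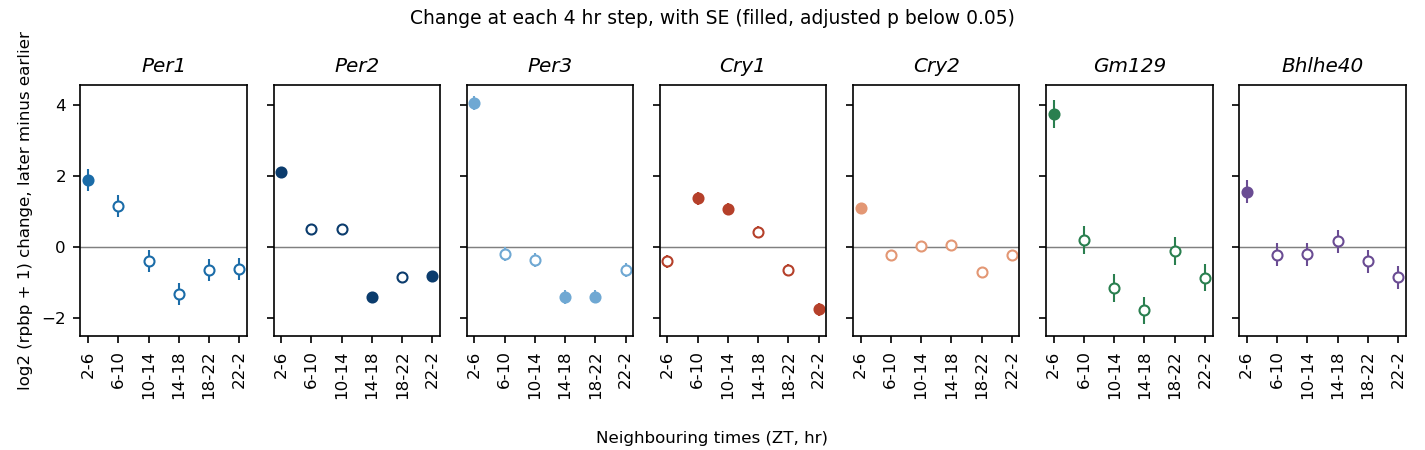
Change in log2(rpbp + 1) at each 4 hr step, later minus earlier time, for the 7 tested repressors, with standard errors from limma and filled symbols where the adjusted p was below 0.05. The filled symbols at the step from ZT2 to ZT6 are those of *Per1*, *Per2*, *Per3*, *Cry2*, *Gm129* and *Bhlhe40*, and *Cry1* has its filled symbols at the next 2 steps and the last.

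Because rpbp is per base of exon, levels of the repressors could be set side by side within each sample. Summed *Per* signal was 4.64 ± 0.622 rpbp (SD, n = 2) at ZT2 and 61.9 ± 0.707 rpbp at ZT14, and summed *Cry* signal was 24.8 ± 0.962 rpbp at ZT2 and 82.5 ± 7.04 rpbp at ZT18. *Per* mRNAs made up 15.8 ± 2.30% of the summed *Per* and *Cry* signal at ZT2, 52.1 ± 2.12% at ZT6, 54.9 ± 0.282% at ZT10, 47.7 ± 0.534% at ZT14, 20.9 ± 4.22% at ZT18 and 16.2 ± 1.55% at ZT22. The share was 47.3% or more in each sample from ZT6 to ZT14 and 23.9% or less in each of the other 6. Between the *Cryptochromes*, *Cry2* exceeded *Cry1* in both series at ZT2, ZT6 and ZT10 and *Cry1* exceeded *Cry2* in both at ZT14, ZT18 and ZT22. *Cry2* was 40.9 ± 1.90% and *Cry1* 7.0 ± 0.227% of the sum at ZT6, against 32.0 ± 5.27% and 51.9 ± 6.82% at ZT22. *Per3* was the leading *Period* mRNA in both series at ZT6 (25.1 ± 2.12% against 21.02 ± 1.06% for *Per2*) and *Per2* at each other time. Over all 8 genes *Bhlhe40* alone made up 48.3 ± 6.25% (ZT14) to 65.9 ± 9.25% (ZT2) of the signal.

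**Figure D4:**
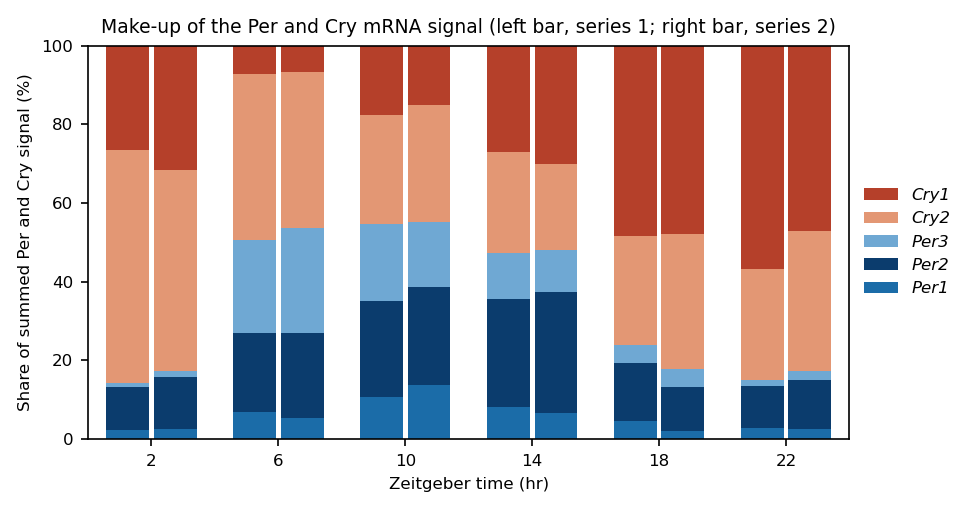
Share (%) of the summed *Per* and *Cry* signal held by each gene at each time, with series 1 as the left and series 2 as the right bar of a pair. The 3 *Per* genes together hold 54.9% at ZT10 and 15.8% at ZT2, and *Cry1* runs from 7.0% at ZT6 to 51.9% at ZT22.

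Other genes whose profiles were most like those of the repressors were found by the root mean square difference between z-scored log2(rpbp + 1) values over the 12 samples, among 8948 genes with a mean of 8 rpbp or more. For *Per3* the nearest was *Tef*, a PAR bZIP transcription factor (difference 0.137, peak time 9.96 hr), and then *Wee1*, a kinase that delays mitosis (0.178, 10.3 hr). *Per1* was nearest to *Slc16a12* (0.231) and to *Pbef1* (0.233), now *Nampt*, the rate-limiting enzyme of NAD salvage. *Per2* was nearest to the cytochrome P450 gene *Cyp2a5* (0.250) and to *Por* (0.313), the reductase that supplies electrons to P450 enzymes. *Cry1* was nearest to *Lonrf3* (0.224) and *Ahctf1* (0.273), *Gm129* to *Trak1* (0.268), *Cry2* to *Dcxr* (0.351), *Bhlhe40* to *Ssfa2* (0.303) and *Bhlhe41* to *Hook2* (0.434). The median difference to all compared genes was 1.42 to 1.47, and these likenesses are a description of profiles only.

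Of 35 other clock genes listed for comparison, 30 were tested and 12 were rhythmic. Calls were made for 4 of 5 tested activators, both REV-ERB genes, the 3 PAR bZIP genes (*Dbp*, *Tef* and *Hlf*) and their rival *Nfil3*, 1 of 6 enzymes that act on PER or CRY (*Usp2*, a deubiquitinase) and 1 of 13 genes of proteins found in PER complexes (*Mta2*), beside 19.1% of all tested genes; differences between these groups were not tested. With the adjusted permutation p, 10 of the 30 kept a call, and those of *Hlf* (0.184) and *Mta2* (0.142) were lost. Median F24 was 0.849 over the 7 tested repressors, 0.485 over the 30 listed genes and 0.31 over all tested genes. *Nr1d1*, which codes for the repressor REV-ERBα, peaked at 5.33 hr and *Nr1d2* at 8.05 hr, both before *Gm129*. *Dbp*, a D-box activator, peaked at 7.36 hr. *Arntl*, which codes for BMAL1, peaked at 21.1 hr, with 26.7 ± 1.33 rpbp (SD, n = 2) at ZT22 and 1.60 ± 0.679 rpbp at ZT6, and *Clock* at 21.3 hr. *Nfil3*, a repressor of D-box genes, peaked at 20.1 hr, after *Cry1* (17.3 hr).

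**Figure D5:**
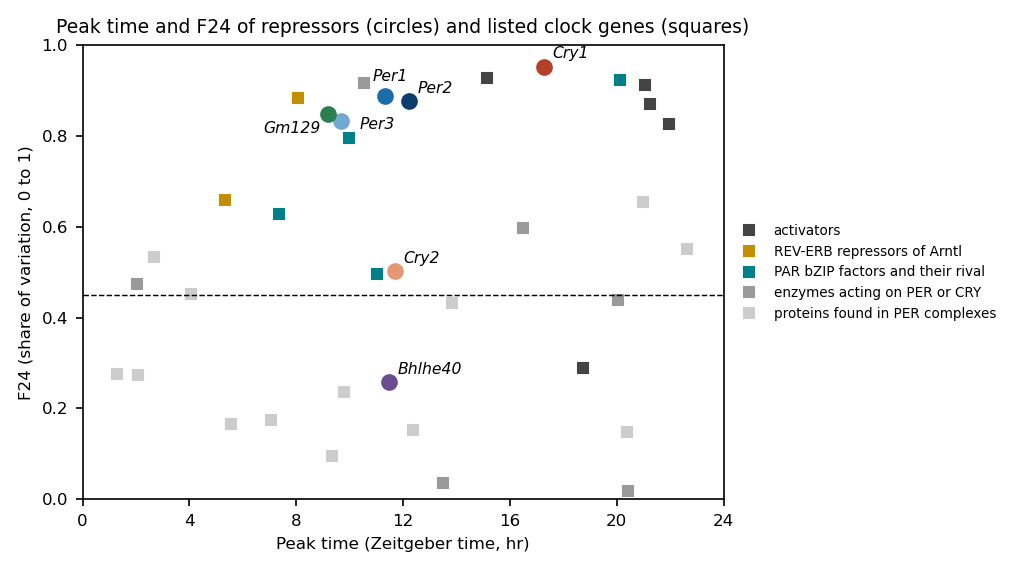
F24 against peak time (hr after lights on) for the 7 tested repressors (labelled circles) and the 30 tested genes of the clock list (squares, by group); the dashed line is the F24 limit of 0.45. *Cry1* (0.954) has the highest F24 of the repressors, and *Cry2* (0.502) and *Bhlhe40* (0.258) are the lowest of them.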

How the data were processed

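The 12 RNA-Seq libraries of mouse liver (TruSeq, polyadenylated RNA) were mapped by the authors to mm9, and per the labels' processing notes TopHat and CASAVA 1.8 were used. The deposited signal is the mean coverage of a gene's exons in reads per base pair, from uniquely mapped sequences and without regard to strand, scaled by the authors to 10000000 sequences. These values were multiplied by 4, to the scale of 40000000 on which the study set its limits. The deposited values hold 1 signal for each gene and sample, with no read counts, so that no count model was run; library totals given by the study were not used here. Columns of the authors' own F24, phase and p-values were not used. Columns headed ZT20 were taken as ZT22, the only time left without a column.

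F24, amplitude and peak time were computed with Python 3.11.15 (numpy 2.4.6, scipy 1.17.1), with 100000 orders (seed 1). Changes between times and cosine fits used limma 3.58.1 in R 4.3.3, with 1 mean a time, a trended prior and a pseudocount of 1 rpbp; its fold changes are on the log2(rpbp + 1) scale, which understates those of low genes. The permutation p sets F24 against random orders of the values. Limma's p sets a change against the residual spread of its fit, moderated over genes. Both rest on these 12 samples alone. Both methods were tested on simulated data. All 8 members are named, with their nearest profiles (mean of at least 8 rpbp) and listed clock genes that were called or tested. The members and lists were chosen with earlier results of these data known. Same-numbered samples did not deviate together: 2 of 15 pairs of times had a correlation above 0.1 (−0.153 to 0.206). Alternatives were other minimums, pseudocounts, scalings, fits and left-out samples.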

Additional observations from a re-analysis of the deposited data

How the results depend on the processing

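Calls of a 24 hr rhythm fell from 1948 genes to 510 with an adjusted permutation p and to 875 with limma's cosine fit. Leaving out a sample or a series gave 284 to 1987 genes and 1 to 6 repressors, the low ends with 1 series of 6 values. A minimum of 16 rpbp left 4 repressors, since *Per1* was then not tested. Genes called from ZT6 to ZT10 numbered 33 (4 with no minimum, 21 with a replicate block), from ZT10 to ZT14 91 (43 with no minimum), from ZT14 to ZT18 51 (23 and 32), from ZT18 to ZT22 13 (0 with the block, by limma) and from ZT22 to ZT2 254 (138 and 148). Without 1 sample the 6 steps from ZT2 on gave 814 to 2080, 0 to 38, 3 to 133, 2 to 123, 0 to 49 and 30 to 345 genes.

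The replicate numbers do not pair the samples; with the block 2131 genes and the same 5 repressors were rhythmic, and of the 13 called changes of repressors 1 lost its call (*Per3* from ZT18 to ZT22, limma adjusted p = 0.0728). Other settings that ended a call were a minimum of 16 rpbp for *Per3* from ZT14 to ZT18 (0.0526) and from ZT18 to ZT22 (0.102), a pseudocount of 4 for the latter (0.0859), and no minimum for the 2 rises of *Cry1* (0.0545 and 0.0696). The cause was not tested. None of the called changes of repressors turned direction in the alternatives run.

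On log2(rpbp + 1) peak times moved to 10.8 hr for *Per3*, 10.01 hr for *Gm129* and 8.10 hr for *Bhlhe41*. Without a sample or a series they ranged over 12.0 to 12.6 hr for *Per2*, 9.31 to 10.1 hr for *Per3*, 8.80 to 9.44 hr for *Gm129* and 6.23 to 7.77 hr for *Bhlhe41*. Amplitudes from 12 single values were 20.2-fold for *Per1*, 12.4 for *Per2*, 83.9 for *Per3*, 2.47 for *Cry2* and 4.76 for *Bhlhe40*, and from the cosine fit 7.52 for *Per1*, 7.05 for *Per2*, 16.6 for *Per3*, 7.55 for *Cry1* and 1.84 for *Cry2*. Without a sample or a series they ranged over 17.0- to 19.7-fold for *Per1*, 9.79 to 11.7 for *Per2*, 45.9 to 78.6 for *Per3*, 2.29 to 4.35 for *Bhlhe40* and 2.04 to 2.45 for *Cry2*. With 2 samples a time and no read counts in the table, no counting error was given for levels near 0 (*Gm129*, *Per3* and *Per1* at ZT2, *Bhlhe41*).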
